A study of Mus musculus with 24 samples.

Results

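The genes described here are 10 genes of liver matrix and of the hepatic stellate cell: the fibrillar collagen genes Col1a1, Col1a2 and Col3a1, the basement membrane collagen genes Col4a1 and Col4a2, and the stellate cell and matrix markers Dcn, Lrat, Reln, Colec11 and Des. They were chosen by symbol, and all 10 were found, of 23732 loci used. Each was measured by RNA-seq of whole mouse liver in 24 libraries, 3 in each of 8 groups. Values are FPKM, fragments per kilobase of transcript scaled to each library's total, so levels can be compared between genes as well as between samples.

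All animals were C57BL/6 mice, and all groups carried or derived from the floxed FoxO1lox/lox allele of Foxo1, a transcription factor of the fasting liver that insulin holds out of the nucleus. In the acute model FoxO1lox/lox mice received AAV8.TBG.eGFP (GFP groups) or AAV8.TBG.Cre (Cre groups) through the tail vein, and liver was collected on day 21. In the constitutive model FoxO1lox/lox mice (WT groups) were compared with FoxO1-/- mice from a cross with Albumin-cre (KO groups), without virus. Livers were taken after a 4 h fast or after a 4 h fast and 1 h of refeeding. The TBG and albumin promoters drive expression in hepatocytes, so stellate cells should keep Foxo1 in all groups, which was not measured here. Age and sex are not given in the sources used here. The labels do not say that the libraries of a group came from separate animals, so the p-values measure the spread between these libraries, which may be technical.

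Hepatic stellate cells lie between hepatocytes and the sinusoidal endothelium. In healthy liver they store retinoid as retinyl esters and produce a thin matrix, and in injury they turn into myofibroblasts that lay down type I and type III collagen. Type IV collagen forms the sheet of basement membranes and is made by sinusoidal endothelial cells as well as by stellate cells.

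Foxo1, the deleted gene, followed the labels. It was between 4.21 and 6.81 FPKM in the 12 control libraries and between 0.212 and 0.571 FPKM in the 12 knockout libraries, and knockout lowered it in all 4 comparisons, by 2.05 to 2.34 on the log2(FPKM + 1) scale. Hepatocyte RNA dominated, with Alb between 31500 and 51500 FPKM. Stellate markers were present in every library, but at a low level, and Gfap, a stellate marker in some species and states, did not exceed 0.241 FPKM. Among markers of contractile cells, Acta2, the actin of activated stellate cells and smooth muscle, was between 0.201 and 1.05 FPKM. Myh11 was at most 0.311 FPKM, while Tagln was higher, between 2.49 and 4.66 FPKM. Skeletal muscle, another source of Des, was nearly absent, with Ckm at most 0.0439 FPKM. Relative depth, read from the width of the authors' confidence bounds, was 1.10 to 1.27 in the constitutive libraries, 1.16 to 1.37 in 4 acute libraries (1 of each group) and 0.553 to 0.672 in the other 8. In bulk tissue, fewer cells of a type and less RNA per cell cannot be told apart.

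The library labelled GFP fasted replicate 1 stood apart from the other libraries of its group. Its Dcn was 69.5 FPKM against 32.5 and 34.2, its Colec11 20.9 against 10.3 and 12.1, its Reln 4.56 against 1.86 and 2.5, and its Lrat 2.95 against 1.04 and 0.652. For these genes it lay at or near the level of the refed libraries of the acute model. The sum of the 20 other stellate markers was likewise 112 FPKM in it and 59.2 and 75.0 FPKM in the other libraries of the group. Its sum of 8 sinusoidal endothelial markers, 78.4 FPKM, was matched by replicate 3 at 76.7 FPKM and was higher than replicate 2 at 39.1 FPKM. Tests of the 10 genes are given with and without this library where a call changed, and the correlations were not repeated without it.

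**Figure D1:**
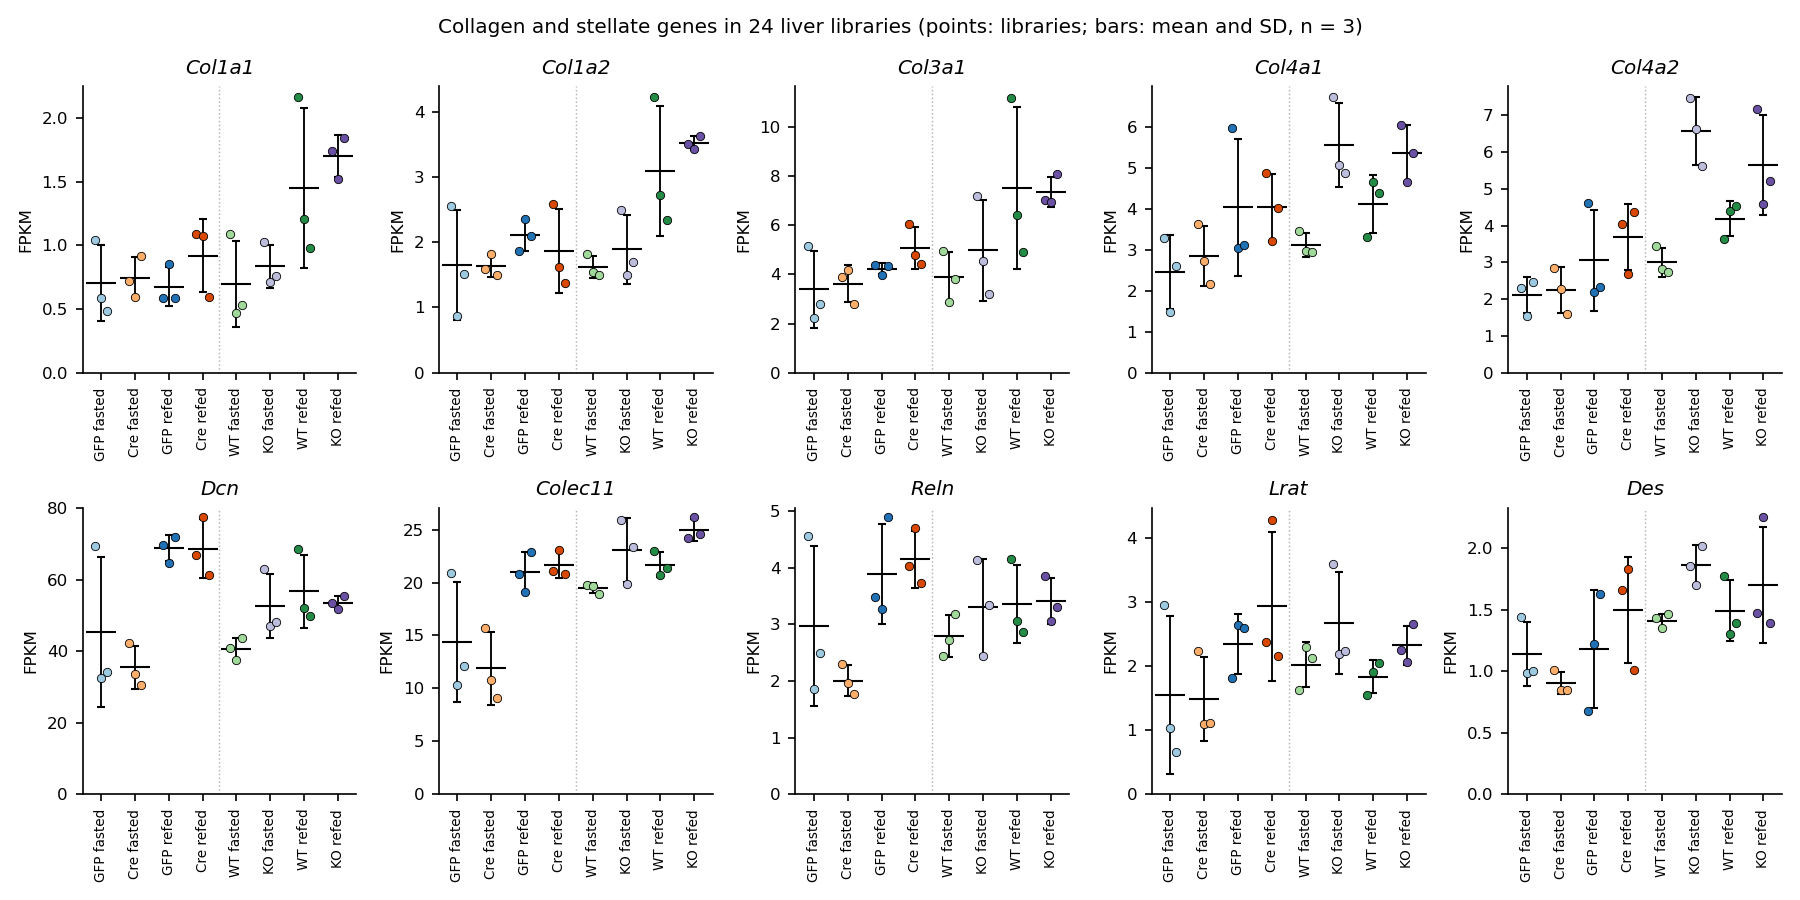
FPKM of the 10 genes (one panel each, each with its own axis from 0) in the 8 groups; points are libraries, horizontal bars group means and error bars SD of 3 libraries, and the dotted line parts the acute from the constitutive model. The fibrillar collagens are highest in the constitutive refed groups, Col4a1 and Col4a2 in the constitutive knockout groups, and Dcn in the acute refed groups.

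Refeeding for 1 h was accompanied by higher levels of most of these genes when all 4 genotype groups were averaged. Of the 10 genes, 7 rose (Dcn, Colec11, Col1a2, Col3a1, Col1a1, Reln and Col4a1) and none fell, in limma's moderated test on log2(FPKM + 1) with Benjamini-Hochberg adjustment over 10682 genes. Refeeding moved much of the liver transcriptome: 30.3% of all genes tested passed, and 19.9% passed as higher. The median difference of the 10 genes was 0.32 on the log2(FPKM + 1) scale, and that of all genes tested was 0.04. Of the 7 calls, 6 held when any 1 of the 24 libraries was left out, while that of Col4a1 was lost in 14 of the 24 cases, with adjusted p up to 0.0714. Without the 4 deeper acute libraries Col1a1 (adjusted p = 0.0637) and Reln (adjusted p = 0.0529) also missed the threshold, and with median-of-ratios scaling Col4a1 did (adjusted p = 0.0657). Col4a2 (0.26 ± 0.10, adjusted p = 0.0575) passed when any 1 of 5 libraries was left out (Cre fasted 1, GFP refed 2 or 3, Cre refed 2 or KO refed 2), with adjusted p from 0.0297 to 0.044.

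When each model was fitted alone, a comparison added after the data were seen, the calls fell on separate genes, with 0 shared. In the acute model 3 of the 10 rose on refeeding, Dcn, Colec11 and Reln, where 19.7% of all genes passed. In the constitutive model 3 of the 10 rose, Col1a1, Col1a2 and Col3a1, where 14.4% of all genes passed. Whether a gene's refeeding difference was unequal between models was tested directly, in a comparison also added after the data were seen. No member passed in limma with Benjamini-Hochberg adjustment (0 of 10, with 6 of 10 at an unadjusted p under 0.05 and 1.43% of all genes called). The 3 fibrillar collagens had differences below 0 there (larger refeeding difference in the constitutive model), from Col1a1 at -0.48 ± 0.17 (SE, adjusted p = 0.118) to Col3a1 at -0.29 ± 0.26. The other 7 were above 0, with Lrat at 0.68 ± 0.26 (adjusted p = 0.138) and Colec11 at 0.57 ± 0.18 (adjusted p = 0.0884). Without GFP fasted replicate 1, Colec11 (0.72), Dcn (0.73) and Lrat (0.86) passed this test, and without Cre fasted replicate 1 Colec11 did (0.68). Only the acute mice received virus, so virus and model cannot be told apart.

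**Figure D2:**
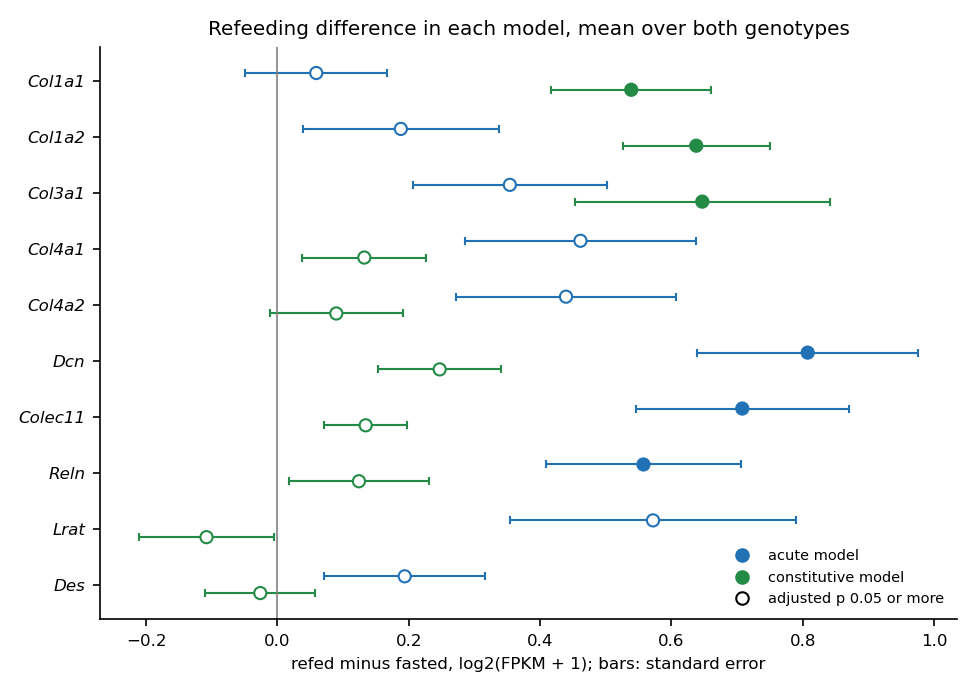
Refed minus fasted difference of each gene, on the log2(FPKM + 1) scale, averaged over control and knockout groups within the acute (blue) and the constitutive model (green); bars are standard errors of the fit and filled points passed at an adjusted p below 0.05. Filled blue points are Dcn, Colec11 and Reln, and filled green points are Col1a1, Col1a2 and Col3a1.

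Type I and type III collagen were expressed at low levels. Col1a1 and Col1a2 encode the chains that join into type I collagen, and Col3a1 the chain of type III collagen, which forms mixed fibrils with it. Over the 24 libraries the median was 0.888 FPKM for Col1a1 (mm10 chromosome 11, 94936270 to 94951856), 1.85 FPKM for Col1a2 (chromosome 6, 4505697 to 4541543) and 4.48 FPKM for Col3a1 (chromosome 1, 45311538 to 45349706). Read as the level ± 2 counting errors, the authors' bounds imply 26 to 178 fragments per library for Col1a1, a counting error of 19.6% at the fewest. Col1a1 reached the 1 FPKM minimum of the filter in only 3 of the 12 acute libraries, the smallest number that keeps a gene in that fit.

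Col1a2 had the smallest adjusted p of the 3 on refeeding in the average over groups and in the constitutive model, and Col3a1 had it in the acute model. In the constitutive model it was 1.82, 1.55 and 1.49 FPKM in WT fasted and 4.22, 2.72 and 2.34 FPKM in WT refed livers. In the KO livers it was 2.49, 1.5 and 1.69 FPKM fasted and 3.5, 3.42 and 3.63 FPKM refed. Refed and fasted libraries did not overlap in either genotype, and the fold of the means was 1.91 in WT and 1.86 in KO. In the acute model the groups overlapped, at 2.55, 0.877 and 1.52 FPKM in GFP fasted and 1.87, 2.36 and 2.10 FPKM in GFP refed livers. Cre livers gave 1.59, 1.82 and 1.49 FPKM fasted and 2.59, 1.62 and 1.38 FPKM refed.

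Col1a2 rose on refeeding in KO livers by 0.66 ± 0.16 (log2 ± SE, limma adjusted p = 0.0375), the only one of the 10 genes called there, where 5.68% of all genes passed. Leaving out any 1 of the 6 libraries compared ended this call, with adjusted p up to 0.115, and without WT refed replicate 1 Col1a1 (0.56, adjusted p = 0.0389) passed as well. In WT livers the difference of Col1a2 was 0.62 ± 0.16 (adjusted p = 0.105), and none of the 10 genes passed in limma, with 6 of 10 at an unadjusted p under 0.05 and 0.318% of all genes called. Averaged over genotypes the constitutive difference of Col1a2 was 0.64 ± 0.11 (adjusted p = 0.00587), and the acute one was 0.19 ± 0.15 (adjusted p = 0.403).

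Col1a1 was lower in level than Col1a2 in every library. It was 1.09, 0.473 and 0.532 FPKM in WT fasted and 2.16, 1.21 and 0.980 FPKM in WT refed livers, and 1.03, 0.710 and 0.763 FPKM in KO fasted and 1.74, 1.52 and 1.84 FPKM in KO refed livers. The KO refed libraries lay above all KO fasted ones, with a fold of the means of 2.04, while 1 WT fasted library overlapped the refed range. The constitutive refeeding difference of Col1a1 was 0.54 ± 0.12 (log2 ± SE, adjusted p = 0.0161). All 12 acute libraries were between 0.484 and 1.09 FPKM, with fasted and refed ranges that overlapped, and the acute difference was 0.06 ± 0.11 (adjusted p = 0.743).

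Col3a1, the most abundant of the 3, was 4.95, 2.87 and 3.81 FPKM in WT fasted and 11.2, 6.42 and 4.92 FPKM in WT refed livers. It was 7.21, 4.56 and 3.19 FPKM in KO fasted and 7.04, 6.96 and 8.07 FPKM in KO refed livers. WT refed replicate 1 was the highest of all 24 libraries for Col1a1, Col1a2 and Col3a1, and KO fasted replicate 1 overlapped the refed range for Col3a1. The constitutive refeeding difference of Col3a1 was 0.65 ± 0.19 (log2 ± SE, adjusted p = 0.0459). In the acute model Col3a1 was 3.90, 4.20 and 2.79 FPKM in Cre fasted and 6.05, 4.8 and 4.41 FPKM in Cre refed livers, without overlap, and 5.15, 2.22 and 2.80 FPKM in GFP fasted and 4.39, 3.96 and 4.35 FPKM in GFP refed livers, with overlap. The acute difference of Col3a1 was 0.35 ± 0.15 (adjusted p = 0.117).

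The ratio of Col1a1 to Col1a2 stayed within 0.28 to 0.665 over all libraries, with a median of 0.437. It was 0.28 to 0.363 in GFP refed livers, below every library of the Cre refed (0.423 to 0.665), WT refed (0.418 to 0.512), KO refed (0.445 to 0.507) and KO fasted groups (0.413 to 0.472), and overlapped the other 3 fasted groups. The ratio of Col1a2 to Dcn was 0.0654 to 0.0659 in KO refed and 0.0471 to 0.0615 in WT refed livers, against 0.0208 to 0.0386 in Cre refed and 0.0268 to 0.0364 in GFP refed livers. These ratios were not tested.

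The promoter windows of Col1a2 and Col3a1 are shown because both genes rose together in the refed constitutive livers. They run from 250 bases before to 50 bases after the RefSeq start (build GRCm38.p6, the assembly of mm10), at chr6:4505368-4505667 on the plus strand for Col1a2 and at chr1:45311288-45311587 on the plus strand for Col3a1. In the files Col1a2 begins at 4505697, after the end of its window, so its motif positions hold for the RefSeq start only. RefSeq windows were matched by symbol for 8 of the 10 genes, and 4 motifs were searched on both strands. They were the TATA box, searched as TATAAA, the pentamer of the CCAAT box, the GC box, searched as GGGCGG, and a forkhead site, searched as GTAAACA. No 2 matches overlap in the windows shown, and capitals mark each match, on either strand.
Col1a2: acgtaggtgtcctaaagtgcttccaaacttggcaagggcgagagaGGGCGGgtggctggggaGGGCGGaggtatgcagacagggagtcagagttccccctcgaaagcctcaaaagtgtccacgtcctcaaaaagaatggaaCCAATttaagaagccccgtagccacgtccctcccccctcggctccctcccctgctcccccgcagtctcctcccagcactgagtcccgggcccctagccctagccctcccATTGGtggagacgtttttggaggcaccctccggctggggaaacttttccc
Col3a1: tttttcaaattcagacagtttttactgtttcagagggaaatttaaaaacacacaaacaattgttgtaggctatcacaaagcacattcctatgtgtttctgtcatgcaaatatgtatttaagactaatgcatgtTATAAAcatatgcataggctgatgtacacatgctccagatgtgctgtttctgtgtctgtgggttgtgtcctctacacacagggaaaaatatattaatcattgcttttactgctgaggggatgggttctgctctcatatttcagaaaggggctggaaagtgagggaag
Counted from the RefSeq start site, the Col1a2 window holds the GC box at -205 and -188 and the CCAAT box at -109 on the plus strand, and a second CCAAT box on the minus strand at 1. The Col3a1 window holds a single TATA box at -117 and neither of these. Of all 32851 promoter windows of this length, 13.6% hold the TATA box letters, 37.4% those of the CCAAT box, 35.7% those of the GC box and 3.65% those of the forkhead site. The forkhead letters were not found in any of the 8 windows matched. A match describes these letters only, and the windows of Col1a2 and Col3a1 have none of the 4 motifs in common.

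Col4a1 and Col4a2 had the largest knockout differences of the 10 genes, in fasted livers of the constitutive model. They encode the chains that assemble into the common form of type IV collagen. In constitutive KO fasted livers Col4a2 was 7.47, 6.62 and 5.61 FPKM, and in WT fasted livers it was 3.44, 2.82 and 2.73 FPKM. Col4a1 was 6.73, 5.07 and 4.87 FPKM in the same KO livers and 3.46, 2.97 and 2.94 FPKM in the WT livers. KO and WT libraries did not overlap for either gene, and the folds of the means were 2.19 for Col4a2 and 1.78 for Col4a1. Col4a2 rose by 0.92 ± 0.14 (log2 ± SE, limma adjusted p = 0.0428), 1 of 10 genes called where 0.0964% of all genes passed. Col4a1 differed by 0.66 ± 0.13 and missed the threshold (adjusted p = 0.132).

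The call of Col4a2 in fasted livers was at the edge of the threshold. It was lost on leaving out any 1 of the 6 libraries compared, or WT refed replicate 2 or 3 or KO refed replicate 3 from the shared fit, with adjusted p up to 0.204. The log2 difference stayed between 0.83 and 1.01 in these fits. When fasted and refed livers of the constitutive model were averaged, a comparison added after the data were seen, both genes passed: Col4a2 at 0.63 ± 0.10 (adjusted p = 0.0173) and Col4a1 at 0.49 ± 0.09 (adjusted p = 0.0439), 2 of 10 genes where 0.723% of all genes passed.

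Refed livers of the constitutive model gave no call. Col4a2 was 7.16, 4.58 and 5.21 FPKM in KO and 3.64, 4.39 and 4.54 FPKM in WT livers, and Col4a1 was 6.04, 4.65 and 5.36 FPKM in KO and 3.32, 4.66 and 4.38 FPKM in WT livers. KO libraries all lay above WT libraries for Col4a2, narrowly, and overlapped for Col4a1. The refed difference was 0.34 ± 0.14 for Col4a2 (adjusted p = 0.441), and none of the 10 genes passed in limma (2 of 10 at an unadjusted p under 0.05, 0.0289% of all genes called). The interaction of knockout and refeeding was -0.58 ± 0.20 for Col4a2 (unadjusted p = 0.0151 by limma, adjusted p = 0.963). None of the 10 genes passed that test, with 2 of 10 at an unadjusted p under 0.05, and 0 (0%) of all genes did.

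Cre and GFP livers of the acute model overlapped for both genes. Col4a2 was 2.30, 1.55 and 2.48 FPKM in GFP fasted and 2.86, 2.29 and 1.59 FPKM in Cre fasted livers, and 4.63, 2.21 and 2.34 FPKM in GFP refed and 4.04, 2.68 and 4.37 FPKM in Cre refed livers. Col4a1 was 3.29, 1.49 and 2.60 FPKM in GFP fasted, 3.63, 2.72 and 2.17 FPKM in Cre fasted, 5.97, 3.05 and 3.11 FPKM in GFP refed and 4.86, 3.21 and 4.01 FPKM in Cre refed livers. GFP refed replicate 1 was the highest acute library for both genes. The difference of Col4a2 between Cre and GFP was 0.06 ± 0.24 fasted (95% interval -0.46 to 0.57) and 0.24 ± 0.24 refed (-0.28 to 0.76). The fasted interval of the acute model lies below that of the constitutive model, 0.61 to 1.23, but the test of the difference between models gave -0.86 ± 0.29 (unadjusted p = 0.00781 by limma, adjusted p = 0.395). None of the 10 genes passed it fasted or refed, with 2 of 10 and 0 of 10 at an unadjusted p under 0.05, and 0% of all genes passed.

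Averaged over both models and both feeding states, Col4a2 rose with knockout by 0.39 ± 0.10 (log2 ± SE, limma adjusted p = 0.0426), 1 of 10 genes where 3.14% of all genes passed. It was lost in 16 of the 24 fits that left out 1 library, GFP fasted replicate 1 among them, with adjusted p up to 0.0859, while Col4a1 (0.36, adjusted p = 0.0388) passed beside it without GFP refed replicate 1. The call was also lost without the 4 deeper acute libraries (adjusted p = 0.174). Fitted alone, the acute model gave no call among the 10 genes by limma, where 1.47% of all genes passed, and Col4a2 was at 0.15 ± 0.17 there.

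Levels of sinusoidal endothelial markers are given beside those of type IV collagen. The summed level of the 8 markers (Stab1, Stab2, Lyve1, Clec4g, Oit3, Kdr, Fcgr2b and Cdh5) was 56.6 to 64.7 FPKM in KO fasted and 39.7 to 45.8 FPKM in WT fasted livers, without overlap. All 8 had a difference above 0 there, with a median of 0.42 on the log2 scale, and none passed the test. In acute fasted livers all 8 had a difference between Cre and GFP below 0, with a median of -0.53, and none passed. The sum of the 20 other stellate markers was 107 to 125 FPKM in KO fasted and 90.3 to 99.3 FPKM in WT fasted livers, also without overlap, and the sum of 8 Kupffer cell markers was 96.4 to 133 and 54.2 to 101 FPKM. In refed livers the endothelial sum was 50.7 to 53.3 FPKM in KO and 41.8 to 50.9 FPKM in WT. The part of these cell types in the Col4a1 and Col4a2 difference was not tested.

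The levels of Col4a1 and Col4a2 followed each other closely. Over 24 libraries, after each group mean was removed from log2(FPKM + 1), Pearson's r was 0.898 (permutation p = 5e-05, adjusted p = 0.0003 over 6 pairs) and Spearman's rho was 0.897 (permutation p = 7e-05, adjusted p = 0.00042). It was 0.899 without the 2 most distant libraries, 0.911 in the acute and 0.861 in the constitutive model. Of all 10682 genes in the joint fit Col4a2 was the gene most like Col4a1, and the next were Guf1 (r = 0.773), Dopey1 (0.76), Phkb (0.745) and Cnih (0.735). The ratio of Col4a1 to Col4a2 was 1.33 ± 0.05 (SD, n = 3) in GFP refed and 1.05 ± 0.04 in WT fasted livers, and lowest in KO fasted livers at 0.845 ± 0.07.

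**Figure D3:**
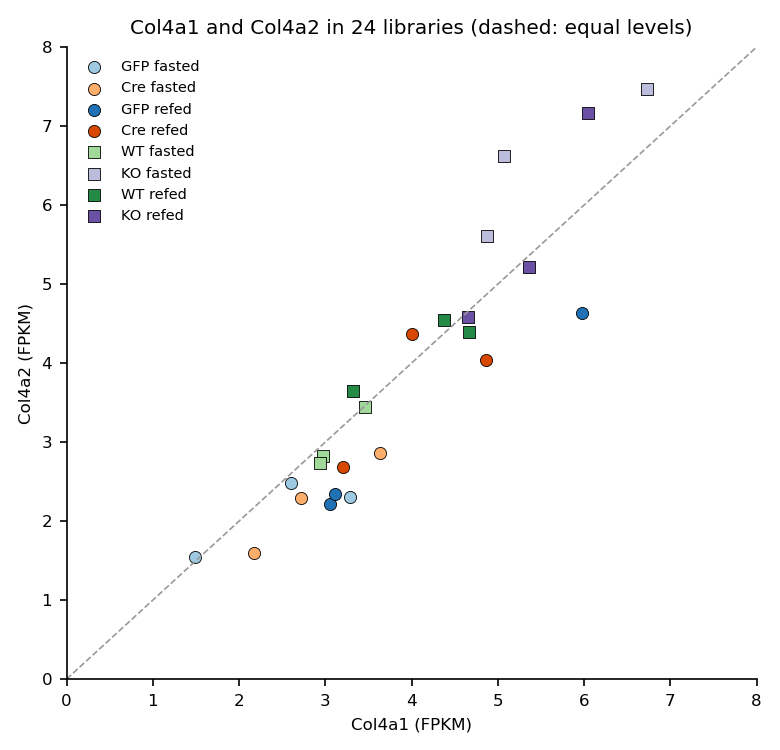
Col4a2 against Col4a1, both in FPKM, in the 24 libraries; circles are acute and squares constitutive libraries, colours are groups, and the dashed line marks equal levels. The KO fasted libraries lie at the upper right above the dashed line, at 4.87 to 6.73 FPKM of Col4a1 and 5.61 to 7.47 FPKM of Col4a2.

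The start regions of Col4a1 and Col4a2 are shown because the genes are neighbours read in opposite directions and move together. In the files Col4a1 spans chromosome 8, 11198423 to 11312826, and Col4a2 spans 11312829 to 11449287 (mm10). The RefSeq windows (GRCm38.p6) are chr8:11312777-11313076 on the minus strand for Col4a1 and chr8:11312555-11312854 on the plus strand for Col4a2, and capitals mark matches to the same motifs. The third line is the stretch that both windows hold, chr8:11312777-11312854, written on the plus strand.
Col4a1: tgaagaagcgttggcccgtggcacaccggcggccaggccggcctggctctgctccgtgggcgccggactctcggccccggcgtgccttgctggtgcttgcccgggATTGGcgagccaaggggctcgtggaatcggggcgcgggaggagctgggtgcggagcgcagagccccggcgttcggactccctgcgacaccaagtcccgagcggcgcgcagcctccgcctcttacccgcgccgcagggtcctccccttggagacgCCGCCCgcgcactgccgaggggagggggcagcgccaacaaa
Col4a2: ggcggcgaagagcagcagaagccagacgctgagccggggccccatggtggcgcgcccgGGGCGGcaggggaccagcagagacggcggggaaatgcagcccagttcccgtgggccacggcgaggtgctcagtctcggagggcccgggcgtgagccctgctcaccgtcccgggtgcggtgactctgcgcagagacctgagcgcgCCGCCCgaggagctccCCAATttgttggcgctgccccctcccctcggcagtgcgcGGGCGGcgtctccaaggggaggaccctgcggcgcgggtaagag
Shared stretch: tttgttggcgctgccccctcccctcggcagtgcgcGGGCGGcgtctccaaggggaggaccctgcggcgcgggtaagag
The RefSeq start sites lie at 11312826 for Col4a1 and 11312805 for Col4a2. By these starts the transcripts overlap head to head by 22 bases, and the windows share 78 bases. The loci of the files, which end at 11312826 for Col4a1 and begin at 11312829 for Col4a2, do not overlap. The shared stretch holds 1 GC box, which is the match at 8 on the plus strand of Col4a2 and at 10 on the minus strand of Col4a1. The Col4a1 window also has 1 CCAAT box outside it, at -145 on the minus strand. The 1 CCAAT box of Col4a2, at -32 on the plus strand, ends on the first base of the shared stretch, and the Col4a2 window has 2 further GC boxes, at -192 on the plus and -48 on the minus strand. The windows are 74.0% and 73.7% G and C.

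Dcn, Colec11 and Reln were the genes that rose on refeeding in the acute model. Dcn encodes decorin, a small proteoglycan that binds collagen fibrils, and was the most abundant of the 10 genes with a median of 52.0 FPKM (mm10 chromosome 10, 97479500 to 97518162). It was 42.3, 33.6 and 30.7 FPKM in Cre fasted and 67, 77.6 and 61.4 FPKM in Cre refed livers, without overlap, and rose by 0.94 ± 0.24 (log2 ± SE, limma adjusted p = 0.0455), 1 of 10 genes where 5.44% of all genes passed. In GFP livers it was 69.5, 32.5 and 34.2 FPKM fasted and 69.7, 64.8 and 72.1 FPKM refed, where the ranges overlapped through replicate 1 of the fasted group.

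In GFP livers none of the 10 genes passed in limma on refeeding (2 of 10 at an unadjusted p under 0.05, 6.56% of all genes called), and Dcn differed by 0.68 ± 0.24 (adjusted p = 0.113). Without GFP fasted replicate 1, Dcn at 1.02 ± 0.14 (adjusted p = 0.0074) and Colec11 at 0.85 ± 0.18 (adjusted p = 0.0369) passed there. In Cre livers leaving out any 1 of the 6 libraries compared, or any 1 GFP refed library, ended the Dcn call, with adjusted p up to 0.137, and without the 4 deeper libraries it was 0.155. In the acute model no difference in refeeding between genotypes was called in limma (0 of 10, also 0 of 10 at an unadjusted p under 0.05, 0.0287% of all genes called). The 95% interval was wide, at -0.48 to 1 for Dcn. In the constitutive model this difference was -0.42 ± 0.19 for Dcn (unadjusted p = 0.0438 by limma, adjusted p = 0.963).

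Colec11 encodes a collectin, a soluble lectin of innate immunity that stellate cells express in liver, and Reln encodes reelin, a secreted glycoprotein. Colec11 was 15.7, 10.8 and 9.13 FPKM in Cre fasted and 21.1, 23.1 and 20.8 FPKM in Cre refed livers, a fold of the means of 1.82. Reln was 2.30, 1.96 and 1.78 FPKM in Cre fasted and 4.03, 4.70 and 3.73 FPKM in Cre refed livers, a fold of 2.06. Neither pair of groups overlapped, and both genes missed the threshold, at 0.85 ± 0.23 (adjusted p = 0.0541) for Colec11 and 0.77 ± 0.21 (adjusted p = 0.0566) for Reln. Both passed without GFP fasted replicate 1 (adjusted p = 0.0245 and 0.0224) or replicate 2 (0.0475 and 0.0414), which share the fit, and Colec11 also passed without Cre fasted replicate 1 (0.041). GFP livers gave 20.9, 10.3 and 12.1 FPKM fasted and 20.8, 19.1 and 22.9 FPKM refed for Colec11. For Reln they gave 4.56, 1.86 and 2.50 FPKM fasted and 3.48, 3.28 and 4.90 FPKM refed, and fasted replicate 1 again lay within the refed range of both genes. Averaged over both genotypes the acute refeeding differences were 0.81 ± 0.17 (adjusted p = 0.00825) for Dcn, 0.71 ± 0.16 (adjusted p = 0.0127) for Colec11 and 0.56 ± 0.15 (adjusted p = 0.0249) for Reln.

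None of these 3 genes passed on refeeding in the constitutive model. Colec11 was 19.8, 19.7 and 18.9 FPKM in WT fasted and 23.0, 20.7 and 21.4 FPKM in WT refed livers, and 25.9, 19.9 and 23.4 FPKM in KO fasted and 24.2, 26.2 and 24.6 FPKM in KO refed livers. Dcn was 40.9, 37.6 and 43.6 FPKM in WT fasted, 68.6, 52.0 and 49.8 FPKM in WT refed, 63.1, 47.0 and 48.1 FPKM in KO fasted and 53.4, 51.9 and 55.6 FPKM in KO refed livers. Refed and fasted WT libraries did not overlap for either gene, whereas KO libraries did. Reln lay between 2.44 and 4.16 FPKM in all 12 constitutive libraries, with overlapping groups. The constitutive refeeding differences were 0.25 ± 0.09 (adjusted p = 0.0957) for Dcn, 0.13 ± 0.06 (adjusted p = 0.173) for Colec11 and 0.12 ± 0.11 (adjusted p = 0.463) for Reln. The fasted acute libraries other than GFP fasted replicate 1 held 9.13 to 15.7 FPKM of Colec11, below every constitutive library.

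Lrat and Des did not pass any of the tests with all libraries. Lrat encodes the enzyme that esterifies retinol for storage in stellate cells and is among the most specific stellate markers. It was 2.95, 1.04 and 0.652 FPKM in GFP fasted, 2.23, 1.10 and 1.11 FPKM in Cre fasted, 1.81, 2.63 and 2.59 FPKM in GFP refed and 2.37, 4.27 and 2.16 FPKM in Cre refed livers. Replicate 1 of each fasted group lay within the refed range, and the 4 other fasted libraries lay below it. The acute refeeding difference of Lrat was 0.57 ± 0.22 (adjusted p = 0.0894), and the constitutive one was -0.11 ± 0.10 (adjusted p = 0.509). The 12 constitutive libraries lay between 1.54 and 3.58 FPKM with overlapping refed and fasted groups. Without GFP fasted replicate 1 the refeeding difference of Lrat over both models passed, at 0.32 (adjusted p = 0.0234).

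Des encodes desmin, an intermediate filament protein of stellate and muscle cells. It lay between 0.679 and 2.25 FPKM over all libraries with a median of 1.41 FPKM, and the bounds imply only 14 to 78 fragments, a counting error of 26.7% at the fewest. Its KO fasted libraries, at 1.85, 1.70 and 2.02 FPKM, all lay above the WT fasted ones, at 1.43, 1.35 and 1.46 FPKM, and the difference was 0.24 ± 0.12 (unadjusted p = 0.0635 by limma). The acute fasted difference of Des between Cre and GFP was -0.16 ± 0.17.

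Knockout of Foxo1 in the acute model moved none of the 10 genes by limma, fasted (0 of 10, 0 of 10 at an unadjusted p under 0.05, 0.297% of all genes called) or refed (0 of 10, 0 of 10 at an unadjusted p under 0.05, 0.105% of all genes called). With all libraries, fasted differences ran from -0.35 for Reln to 0.17 for Col4a1. The Reln value leaned on GFP fasted replicate 1, at 4.56 FPKM against 1.86 and 2.5 FPKM in its group and 1.78 to 2.30 FPKM in Cre fasted livers. Lrat in GFP fasted livers did too, at 2.95 FPKM against 1.04 and 0.652 FPKM. The fasted differences of Dcn (-0.27) and Colec11 (-0.23) changed sign without GFP fasted replicate 1, to 0.077 and 0.053. That of Lrat (0.04) changed to -0.43 without the 4 deeper libraries. Cre and GFP libraries overlapped for all 10 genes fasted, where 9.15% of all genes lay apart as higher and 9.55% as lower. They overlapped for 9 of 10 refed, the exception being Col3a1, higher in Cre, where 6.17% of all genes lay apart as higher and 6.51% as lower. In the constitutive fasted livers 5 of 10 genes lay apart as higher in KO (Col4a1, Col4a2, Dcn, Colec11 and Des), where 7.52% of all genes did, and all 10 differences were above 0, with a median of 0.25 against 0.02 for all genes. In the constitutive refed livers 3 of 10 did (Col4a2, Lrat and Colec11), where 6.80% of all genes did.

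**Figure D4:**
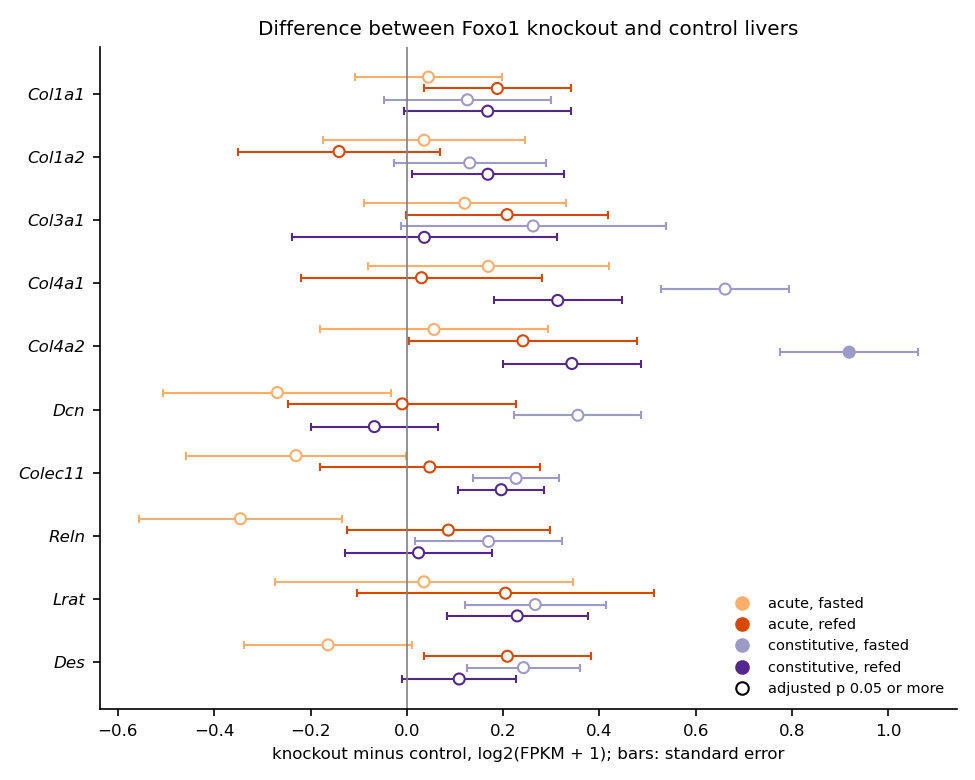
Knockout minus control difference of each gene on the log2(FPKM + 1) scale in the acute and constitutive models, fasted and refed; bars are standard errors of the fit, and filled points passed at an adjusted p below 0.05. The filled point is Col4a2 in constitutive fasted livers at 0.92, and Col4a1 lies next to it at 0.66.

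The same count by feeding state gave 4 of 10 genes apart as higher in refed Cre livers (Col3a1, Dcn, Reln and Colec11; 23.0% of all genes), 0 of 10 in GFP livers (19.9% of all genes), 4 of 10 in WT livers (Col1a2, Col4a2, Dcn and Colec11; 10.2% of all genes) and 2 of 10 in KO livers (Col1a1 and Col1a2; 13.1% of all genes). The control livers of the 2 models, GFP and WT averaged over feeding states, differed for none of the 10 genes by limma (3 of 10 at an unadjusted p under 0.05, 2.29% of all genes called). Col3a1 (-0.41 ± 0.19), Col4a2 (-0.39 ± 0.14) and Col1a1 (-0.26 ± 0.12) were those 3 genes, lower in GFP, and Col4a2 passed without GFP refed replicate 1 (-0.52, adjusted p = 0.0429).

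Other genes of the matrix were counted in the same average over groups on refeeding, where 19.9% of all genes passed as higher and 10.4% as lower. Among 16 tested genes of collagen processing (of 23 listed), 5 rose and none fell. P4ha1, a prolyl hydroxylase subunit that collagen folding needs, rose by 0.54 ± 0.08 (log2 ± SE, limma adjusted p = 9.27e-05). Serpinh1, the collagen chaperone HSP47, rose by 0.49 ± 0.09 (adjusted p = 0.000299), and Plod3, a lysyl hydroxylase, by 0.20 ± 0.06 (adjusted p = 0.0118). Hepatocytes also express such enzymes. Of 18 tested matrix proteins (of 28), 9 rose and 1 fell: Lum, which encodes the fibril-binding proteoglycan lumican, rose by 0.43 and Efemp1 by 0.39, while Agrn, the heparan sulphate proteoglycan agrin, fell by 0.21. The medians were 0.09 for collagen processing and 0.20 for matrix proteins, against 0.04 for all genes.

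Of 9 other tested collagen genes (of 17), Col14a1 (0.40) and Col6a2 (0.27) rose, and Col18a1 and Col5a3 fell, by 0.25 and 0.32. Among 7 tested genes of matrix turnover (of 18), 3 rose: Adamtsl2 (0.42) and the metalloproteinase inhibitors Timp3 (0.40) and Timp2 (0.27). In TGF-beta and PDGF signalling 4 of 17 tested genes rose and 1 fell, and for this list and the other collagens the share that rose was near the 19.9% of all genes. Ctgf, a matricellular target of TGF-beta, rose by 0.44 ± 0.10, the TGF-beta pathway repressors Skil and Ski rose by 0.26 and 0.20, and Smad3, which carries the signal, fell by 0.35 ± 0.07. Of 14 tested genes of retinoid handling, none rose and 3 fell, where 10.4% of all genes passed as lower: Dhrs3 by 0.41, Lipe by 0.47 and Rara by 0.17.

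With knockout, averaged over models, 3.14% of all genes passed in either direction. Of these lists 2 of 9 other collagens, 2 of 18 matrix proteins, 1 of 16 collagen processing genes and 1 of 14 retinoid genes passed, and 0 of 7 matrix turnover and 0 of 17 TGF-beta and PDGF genes did. Col5a3 rose by 0.67 ± 0.10 (log2 ± SE, limma adjusted p = 0.000783), Mgp, an inhibitor of calcification, by 0.52 ± 0.12 and Col27a1 by 0.41 ± 0.10. Fn1, the fibronectin gene that hepatocytes express strongly, fell by 0.27 ± 0.07 (adjusted p = 0.0452), P4ha2 by 0.30 and Rbp4, the retinol carrier that hepatocytes secrete, by 0.26 ± 0.04 (adjusted p = 0.000378).

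Markers of stellate cells and of other sinusoidal cells were counted in the same refeeding average, against the 19.9% of all genes called higher. Of 15 tested other stellate markers (of 20), 11 rose and none fell, with a median of 0.32 against 0.32 for the 10 genes. They included Gdf2, the ligand BMP9 (0.48 ± 0.08, limma adjusted p = 0.000306), Vipr1 (0.34), Angptl6 (0.39) and Ecm1 (0.48). Of 8 Kupffer cell markers 4 rose (median 0.54), of 8 sinusoidal endothelial markers 3 rose (median 0.26), and both tested mesothelial markers, Upk3b and Msln, rose. Of 6 hepatocyte markers none passed, with a median of 0.02, and of 3 tested myofibroblast markers none passed, with a median of 0.19.

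Summed levels of the stellate, endothelial and Kupffer cell markers did not part fasted from refed livers in every group. The other stellate markers summed to 53.4 to 78.3 FPKM in Cre fasted and 94.4 to 120 FPKM in Cre refed livers, and the endothelial markers to 24.2 to 48.6 and 57.4 to 87.2 FPKM. In GFP livers both sums overlapped, the stellate one at 59.2 to 112 FPKM fasted and 99 to 120 FPKM refed and the endothelial one at 39.1 to 78.4 and 71.7 to 94.9 FPKM. In the constitutive WT livers the stellate sum was 90.3 to 99.3 FPKM fasted and 109 to 124 FPKM refed, and the endothelial sum 39.7 to 45.8 and 41.8 to 50.9 FPKM. In KO livers the stellate sum was 107 to 125 FPKM fasted and 123 to 151 FPKM refed, while the endothelial sum was 56.6 to 64.7 and 50.7 to 53.3 FPKM. The Kupffer sum varied widely among Cre refed libraries, from 28.6 to 181 FPKM. The sum of 4 mesothelial markers was low, and highest of all libraries in WT refed replicate 1. It was 0.166 to 0.89 FPKM in WT fasted and 1.24 to 5.34 FPKM in WT refed livers. In KO livers it was 0.0191 to 2.09 FPKM fasted and 2.66 to 2.83 FPKM refed. GFP livers gave 0.974 to 1.57 FPKM fasted and 1.66 to 2.33 FPKM refed, while Cre livers were lower refed, at 2.73 to 4.13 and 1.75 to 2.27 FPKM. The sum of the 3 fibrillar collagens was 5.64 to 10.7 FPKM in KO fasted and 11.9 to 13.5 FPKM in KO refed livers, and 4.89 to 7.86 and 8.24 to 17.6 FPKM in WT fasted and refed livers. In the acute model it overlapped, at 5.19 to 6.61 and 6.38 to 9.73 FPKM in Cre fasted and refed and 3.68 to 8.74 and 6.85 to 7.18 FPKM in GFP fasted and refed livers. The part of these cell types in the refeeding differences was not tested.

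**Figure D5:**
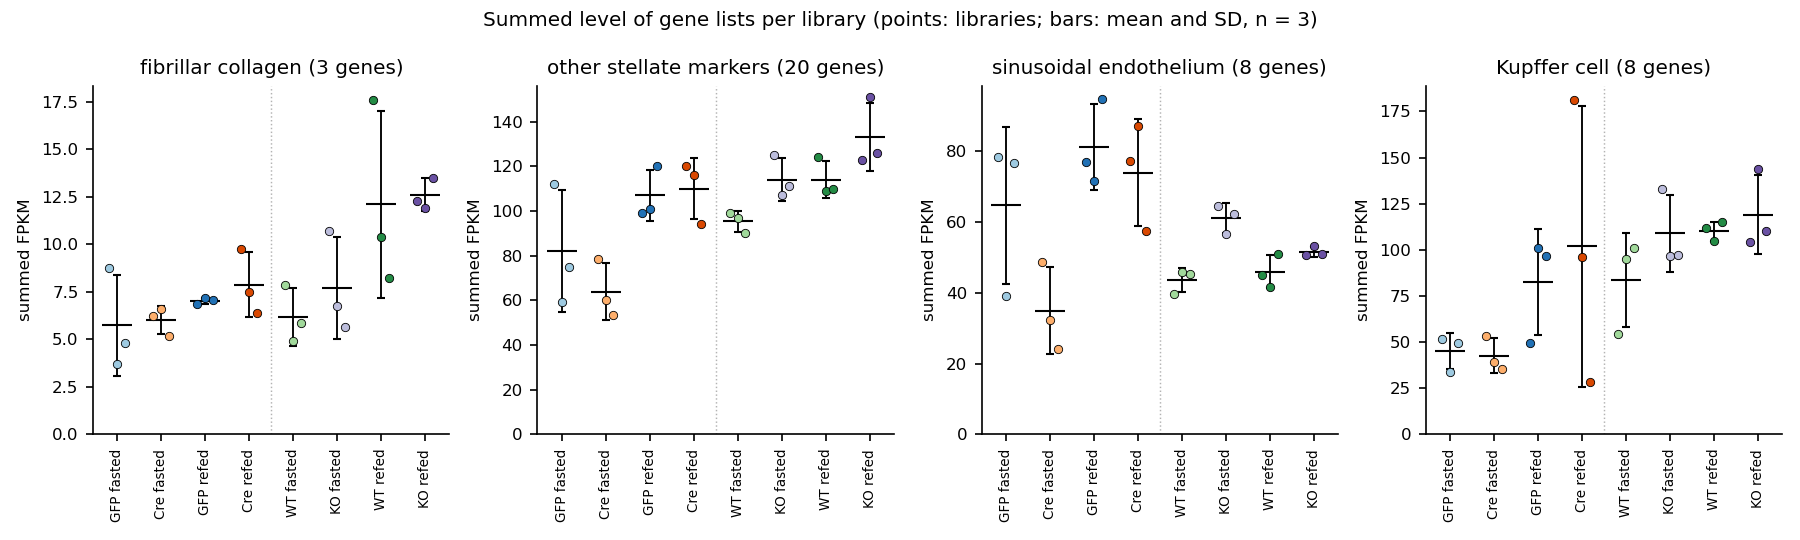
Summed FPKM of 4 gene lists per library in the 8 groups (points are libraries, bars mean and SD of 3); the lists are the 3 fibrillar collagens, 20 other stellate markers, 8 sinusoidal endothelial markers and 8 Kupffer cell markers. The acute refed libraries sum to 94.4 to 120 FPKM of stellate markers, against 53.4 to 78.3 in Cre fasted and 59.2 to 112 in GFP fasted, which overlaps the refed range, while the fibrillar collagens are highest in the constitutive refed groups.

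The 10 genes did not vary as 1 block within groups. Over the 45 pairs, the median Pearson's r of group-centred log2(FPKM + 1) over 24 libraries was 0.438, with 41 pairs above 0, and it ran from -0.558 for Col4a2 and Des to 0.898 for Col4a1 and Col4a2. All genes of a library share its depth and tissue composition. Among the 6 pairs tested, Col1a1 and Col1a2 had r = 0.726 (permutation p = 0.00273, adjusted p = 0.00819) and rho = 0.671 (permutation p = 0.00421, adjusted p = 0.0126), and r = 0.639 without WT refed replicate 1 and KO refed replicate 3. Col1a1 and Col3a1 had r = 0.71 (permutation p = 0.00716, adjusted p = 0.0143) and rho = 0.593 (permutation p = 0.0215, adjusted p = 0.0322), and r = 0.584 without these libraries. By model r was 0.633 and 0.875 for the first of these pairs and 0.447 and 0.865 for the second, acute before constitutive.

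The pairs across classes were Col1a1 with Lrat and Col1a1 with Col4a1. Col1a1 and Lrat had r = 0.303 (permutation p = 0.262, adjusted p = 0.314) and rho = 0.297 (permutation p = 0.216, adjusted p = 0.26), with 0.663 in the acute and -0.241 in the constitutive model, and 0.454 without the 2 most distant libraries. Col1a1 and Col4a1 had r = 0.016 (permutation p = 0.948, adjusted p = 0.948) and rho = 0.006 (permutation p = 0.98, adjusted p = 0.98), with 0.205 without the 2 most distant libraries. Lrat and Reln had r = 0.663 (permutation p = 0.0225, adjusted p = 0.0338) and rho = 0.582 (permutation p = 0.0175, adjusted p = 0.0322). By model r was 0.77 in the acute and 0.38 in the constitutive model. It was 0.683 without GFP fasted replicate 3 and Cre refed replicate 2, the libraries most distant in the level of Lrat. GFP fasted replicate 1, high in both genes, stayed in. The adjusted p of r for that pair rose to 0.0577 with a pseudocount of 0.1 and to 0.0551 with median-of-ratios scaling.

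By the same measure, the genes most like Col1a1 were Col6a1 (r = 0.812), Ctsd (0.797), Smoc2 (0.795), Herc6 (0.783) and Timp2 (0.779), of which Col6a1 encodes a chain of the microfibrillar type VI collagen. The genes most like Lrat were Igfbp3 (0.788), Malat1 (0.765), Dcn (0.764), Neurl3 (0.76) and Zfp955a (0.755).

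The order of the group means differed between the classes. The highest mean was in KO refed livers for Col1a1 (1.70 ± 0.16 FPKM, SD, n = 3), Col1a2 (3.52 ± 0.11) and Colec11 (25.0 ± 1.04), and in WT refed livers for Col3a1 (7.53 ± 3.30). It was in KO fasted livers for Col4a1 (5.56 ± 1.02), Col4a2 (6.57 ± 0.93) and Des (1.86 ± 0.16), in GFP refed livers for Dcn and in Cre refed livers for Lrat and Reln. Most neighbours in these orders overlapped. The exceptions were KO refed over Cre refed for Col3a1, KO refed over WT refed for Col4a2 and WT fasted over Cre fasted for Reln. Those of Col3a1 and Reln set livers of different models side by side. Neighbours were set by these same means, the share over all genes was not counted, and these gaps were not tested. The fold of the highest over the lowest group mean ran from 1.94 for Dcn to 3.11 for Col4a2.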

How the data were processed

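RNA-seq of mouse liver was analysed in 24 libraries, 3 in each of 8 groups. The authors deposited 1 table per library with a level in FPKM and a lower and upper bound for each of 23746 loci. Per the submitters' processing notes, HISAT2, Cufflinks and Cuffdiff were used with mm10. Their versions and the counting settings are not given in the sources used here. The kit was stranded, per the labels' protocols. Because the deposited FPKM values are not counts, the test was limma's moderated linear model (version 3.58.1, R 4.3.3, variance trend on) of log2(FPKM + 1). Genes with at least 1 FPKM in at least 3 libraries of a fit were kept, and p-values were adjusted by Benjamini-Hochberg over all of them and called below 0.05. With a pseudocount of 1 a log2 difference understates the change of genes at low levels, most for genes as low as Col1a1 and Des. Reln on refeeding in Cre livers, for example, had a fold of the means of 2.06 and a log2 difference of 0.77. Dcn, the most abundant of the 10, is affected least, so these differences are not on an equal footing between genes. The 4 groups of a model shared a fit (10452 genes acute, 10375 constitutive), and averages over models used all 24 libraries (10682 genes). All 10 genes passed the filter in each. Each fit was tested on simulated data with known changes: in the fasted acute comparison 44.8% of 1.5-fold and 85.1% of 2-fold changes were found, and in the fasted constitutive comparison 47.8% and 94%. The changed genes were drawn from those with a mean above 2 FPKM, so these shares do not cover genes as low as Col1a1 and Des. For each fold 66 or 67 genes were changed, with noise drawn independently for each gene. In the data only 31 genes passed in the fasted acute and 10 in the fasted constitutive comparison. An adjusted p depends on how many other genes pass, so these shares can overstate what the tests find in the data. The 10 genes and all other lists were chosen with earlier results of these data known. The genes named from the other lists were up to 4 called members per list and comparison by adjusted p, besides the marker genes used as checks. Correlations used group-centred values and 100000 permutations, two-sided. The 2 most distant libraries were those farthest from the median level of the first gene of a pair, before centring. Promoter windows came from RefSeq, GRCm38.p6.

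Fragments behind a level were estimated from the deposited bounds, read as the level ± 2 counting errors. Of such numbers under 15, 55.9% lay within 0.05 of a whole number, so they are estimates, and they cover counting error only. Each fit was repeated without the filter, with a pseudocount of 0.1, with median-of-ratios scaling, with the compared groups alone, with the replicate number as a block, without the 4 deeper acute libraries and without each library in turn. Fits of each model alone, and the test of unequal refeeding differences between models, were added after the data were seen.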

Additional observations from a re-analysis of the deposited data

How the results depend on the processing

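Of the 10 genes, 7 were called on refeeding over both models, and 6 to 8 were with any 1 library left out. Over 2625 fits of a single gene's difference with 1 library left out, 2549 kept their side of the threshold without a counted change of direction. Under the other settings 819 of 854 did. A change of direction was not counted where both differences were smaller than their standard errors. Counts of called genes moved far more, and the cause was not tested. The depth of the 8 shallower acute libraries limits Col1a1 and Des most. Replicate numbers were not taken to pair the libraries. The median correlation of deviations between same-numbered libraries was -0.06 in the acute and 0.09 in the constitutive model, and not every pair exceeded 0.1. Between differently numbered libraries it was -0.01 and -0.03. Whether the numbers pair libraries in the constitutive model was not tested.

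With the replicate block, genes called were 5 for acute loss refed, 306 and 457 for refeeding in Cre and GFP livers, 80 for refeeding in WT livers and 1 for the model difference of loss in refed livers. Of the 10 genes, 0 were called for constitutive loss fasted, 2 for mean loss, 0 for refeeding in Cre and 2 for refeeding in KO livers with the block, against 1 in each of these without it.

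Without the filter, genes called were 17 and 6 for acute loss fasted and refed, 4 for constitutive loss fasted, 118 for the control difference, 95 for the model difference of refeeding, and 316, 451, 275 and 21 for refeeding in Cre, GFP, KO and WT livers. The filter's removal left 0 of the 10 called for constitutive loss fasted, 0 for mean loss, 0 for refeeding in Cre and 0 for refeeding in KO livers. With the compared groups alone, genes called were 61 and 3 for acute loss fasted and refed, 5 and 10 for constitutive loss fasted and refed, and 232, 280, 277 and 10 for refeeding in Cre, GFP, KO and WT livers. Of the 10 genes, 0 were called for constitutive loss fasted, 2 for refeeding in Cre and 2 for refeeding in KO livers. With median-of-ratios scaling, genes called were 377 and 73 for refeeding in Cre and WT livers, 0 of the 10 were called for refeeding in Cre livers, and the correlation of Col1a1 and Col4a1 was -0.041. A pseudocount of 0.1 gave 5 genes for constitutive loss refed and 0 of the 10 for mean loss.

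Without the 4 deeper acute libraries, genes called were 5 and 4 for acute loss fasted and refed, 471 for the control difference, 183 for mean loss, 4 for the model difference of loss fasted, and 6 and 222 for refeeding in Cre and GFP livers. None (0) of the 10 was called for mean loss and 0 for refeeding in Cre livers, and Lrat in acute loss fasted was at -0.43. The acute model alone gave 154 genes for mean loss and 2059 for mean refeeding, with 0 and 3 of the 10. The constitutive model alone gave 75 and 1489, with 2 and 3 of the 10, and mean refeeding differences of -0.026 for Des and -0.11 for Lrat.

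With 1 library left out, genes called ran from 7 to 41 for acute loss fasted, 3 to 66 for acute loss refed, 2 to 7 for the acute interaction, 1 to 15 for constitutive loss fasted, 2 to 13 for constitutive loss refed and 0 to 1 for the constitutive interaction. They ran from 54 to 361 for the control difference, 219 to 363 for mean loss, 0 to 45 and 0 to 14 for the model difference of loss fasted and refed, and 41 to 319 for that of refeeding. For refeeding they ran from 57 to 603 in Cre, 293 to 736 in GFP, 71 to 740 in KO and 6 to 47 in WT livers. Among the 10 genes 0 to 1 were called for constitutive loss fasted, 0 to 1 for the control difference, 0 to 2 for mean loss, 0 to 3 for the model difference of refeeding, and 0 to 3, 0 to 2 and 0 to 2 for refeeding in Cre, GFP and KO livers. The acute fasted knockout difference of Colec11 ran from -0.43 to 0.053 and that of Dcn from -0.46 to 0.077, the upper values without GFP fasted replicate 1.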
